A study of Mus musculus with 8 samples.

Results

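The transcription factors of the primordial follicle's oocyte were examined in RNA-Seq counts of isolated follicles. The 8 genes were chosen by symbol: Figla, Sohlh1, Sohlh2, Nobox, Lhx8, Taf4b, Tbp and Tbpl2. All 8 were among the 26586 gene symbols listed, and all 8 passed the expression filter that kept 13873 genes for testing. The series asks whether extra mitochondria given to an egg at fertilisation leave a trace in the follicles of later generations. Mito-supplemented follicles came from offspring of the third generation descended from female founders, made by injecting eggs with a sperm and with mitochondria from egg precursor cells, and control follicles came from colony mice of the same C57Bl/6 x CBA background. Follicles were picked from digested ovaries on postnatal day 3, and their RNA was amplified before sequencing. There were 4 libraries per group, labelled as biological replicates without saying which animals or litters they came from, so that p values measure the spread between these libraries. The labels share a prefix, whose meaning is not given, between control 1 and 2, between control 3 and 4 and among mito-supplemented 1 to 3, with mito-supplemented 4 under another, while the tests and exact permutations treat all libraries as independent.

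In newborn mice, each primordial follicle holds a single oocyte arrested in meiosis and wrapped in flat pregranulosa cells. Figla, Sohlh1 and Sohlh2 encode basic helix-loop-helix (bHLH) proteins, which bind DNA as dimers at short E-box motifs, and Nobox and Lhx8 encode homeodomain proteins. Loss of any of these regulators in mice disturbs the formation or the survival of the first follicles, and Figla and Nobox are known for driving zona pellucida and other egg genes. Taf4b, Tbp and Tbpl2 belong to the general machinery instead. Tbp is the TATA-binding subunit of TFIID in most cells, Tbpl2 is its paralogue in growing oocytes, and Taf4b is a TFIID subunit enriched in gonads.

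The libraries differed widely before any group was compared. Total counts for replicates 1 to 4 were 17658559, 13917412, 18219362 and 10370045 in controls and 19760763, 13370911, 16116434 and 13276462 in mito-supplemented samples. The ribosomal RNA symbols Rnr1, Rnr2, Rn45s and Rn18s took 23.0%, 41.3%, 40.6% and 75.3% of the control counts and 20.2%, 45.6%, 36.4% and 44.0% of the mito-supplemented counts, so that control 4 was the shallowest library for other genes. Levels are given as CPM, counts scaled to a common library size, after TMM normalisation, edgeR's scaling of library sizes. The label was checked with germ cell markers, of which 8 of the 9 listed were matched, with Tdrd1 the most abundant. Their summed level was 1658, 83.2, 104 and 365 CPM in control 1 to 4 and 215, 120, 304 and 48.7 CPM in mito-supplemented 1 to 4. Every library thus held germ cell RNA, but control 1 stood apart from the rest, at 13.9 times the median of the other 7, and mito-supplemented 4 was lowest. On the log2 scale the control sum averaged 8.07 ± 1.98 (SD, n = 4) and the mito-supplemented sum 7.13 ± 1.16 (SD, n = 4). The difference of -0.95 had p = 0.486 by a two-sided exact permutation test, in which the lowest value possible was 0.0286. Red cell markers, led by Slc4a1, summed to 5737, 3837 and 6227 CPM in control 2, control 3 and mito-supplemented 1 and to between 26.3 and 99.7 CPM in the other 5 libraries. In such bulk samples, fewer oocytes and less RNA per oocyte cannot be told apart.

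The promoters of 3 members are shown because the members varied together across libraries, as described below, and because bHLH proteins bind E-boxes. RefSeq promoters were found for 7 of the 8 members, and the 250 bases before the RefSeq start were searched in GRCm38.p6. Not every window lies ahead of its gene in GENCODE: all 250 bases of the Figla window, 99 of the Lhx8 window and 16 of the Sohlh2 window are inside the GENCODE gene, and 114 bases of the Tbp window are exon of the neighbouring gene Psmb1. The 3 windows shown are those with neither overlap. Capitals mark each E-box, CANNTG, where N is any base; the motif reads the same way on both strands. The Sohlh1 window lies at chr2:25847249-25847498 on the minus strand, the Nobox window at chr6:43309555-43309804 on the minus strand and the Tbpl2 window at chr2:24096596-24096845 on the minus strand.
Sohlh1: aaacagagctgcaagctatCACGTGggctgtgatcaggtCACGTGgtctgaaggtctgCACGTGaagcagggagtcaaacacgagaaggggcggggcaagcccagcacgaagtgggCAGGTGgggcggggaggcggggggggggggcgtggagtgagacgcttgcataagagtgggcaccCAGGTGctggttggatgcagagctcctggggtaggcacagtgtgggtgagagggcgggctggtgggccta
Nobox: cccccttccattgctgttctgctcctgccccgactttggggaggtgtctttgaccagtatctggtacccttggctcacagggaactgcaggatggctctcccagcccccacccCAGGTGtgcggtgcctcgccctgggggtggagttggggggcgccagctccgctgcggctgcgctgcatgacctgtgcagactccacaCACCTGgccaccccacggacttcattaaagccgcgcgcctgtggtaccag
Tbpl2: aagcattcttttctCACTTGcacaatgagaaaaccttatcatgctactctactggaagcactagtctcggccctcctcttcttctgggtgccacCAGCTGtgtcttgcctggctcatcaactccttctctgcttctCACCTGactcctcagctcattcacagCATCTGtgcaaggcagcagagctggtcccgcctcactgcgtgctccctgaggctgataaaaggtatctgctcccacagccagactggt
The Sohlh1 window held 5 E-boxes, 3 of the form CACGTG and 2 of the form CAGGTG. The Nobox window held 2, both CAGGTG when read on either strand, and the Tbpl2 window held 4, of which 1 was CAGGTG on the other strand. CANNTG was found in 6 of the 7 member promoters, against 66.2% of 32851 mouse promoters of this length, and CAGGTG, counted on both strands and contained in CANNTG, in 4 of 7 against 17.2%. These counts include the 4 overlapping windows, and each of the 3 windows shown held CAGGTG. No E-box was found in the Lhx8 window, of which only a part lies ahead of the GENCODE start. The letters TAATTG and TGATTG, bound by NOBOX and LHX8, and the TATA box letters TATAAA were in 0 of the 7 windows on either strand, against 7.17%, 12.7% and 12.4% of all promoters. These matches describe letters only, and no binding was measured.

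All 8 transcription factors had lower mean levels in mito-supplemented follicles, with log2 fold changes between -0.96 and -2.46 and a median of -1.81, but 0 passed the test. The direction depended on control 1: without this library 5 of the 8 were higher and 3 lower, with a median of 0.18. Without control 2, control 3 and mito-supplemented 1, left out after the red cell levels were seen, all 8 were lower, from -1.42 for Tbp to -3.36 for Tbpl2, and 0 were called. With the mean log2 level of red cell markers as a covariate, all 8 were still below 0 and 0 were called, but 6 moved by more than 1.5 times, to -0.58 for Nobox, -0.83 for Tbpl2, -0.975 for Figla, -1.18 for Sohlh1 and Lhx8 and -1.32 for Sohlh2. With libraries of the same label prefix summed, the 8 lay between -1.40 and -3.07, and 0 were called. By edgeR's quasi-likelihood test and Benjamini-Hochberg adjustment over all genes, 0 of the 8 members were called at an adjusted p value of 0.05, where 0 of the 13873 genes tested were called (0%), and member adjusted p values ran from 0.681 to 0.728. At an unadjusted p value of 0.05 there were 0 of 8 members, against 1069 genes (7.71%). When edgeR's likelihood ratio test was used instead, with 0.05 as the adjusted threshold and at least a 2-fold change, 0 of 8 members were called against 58 genes (0.418%). DESeq2 called 141 genes and 0 members, but gave no adjusted p value for Figla, Sohlh2 and Tbpl2. Of all genes tested, 55.1% had a log2 fold change below 0, with a median of -0.10. Only Tbp had groups that did not overlap in CPM, 1 of 8 members, where 698 genes (5.03%) did so.

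**Figure D1:**
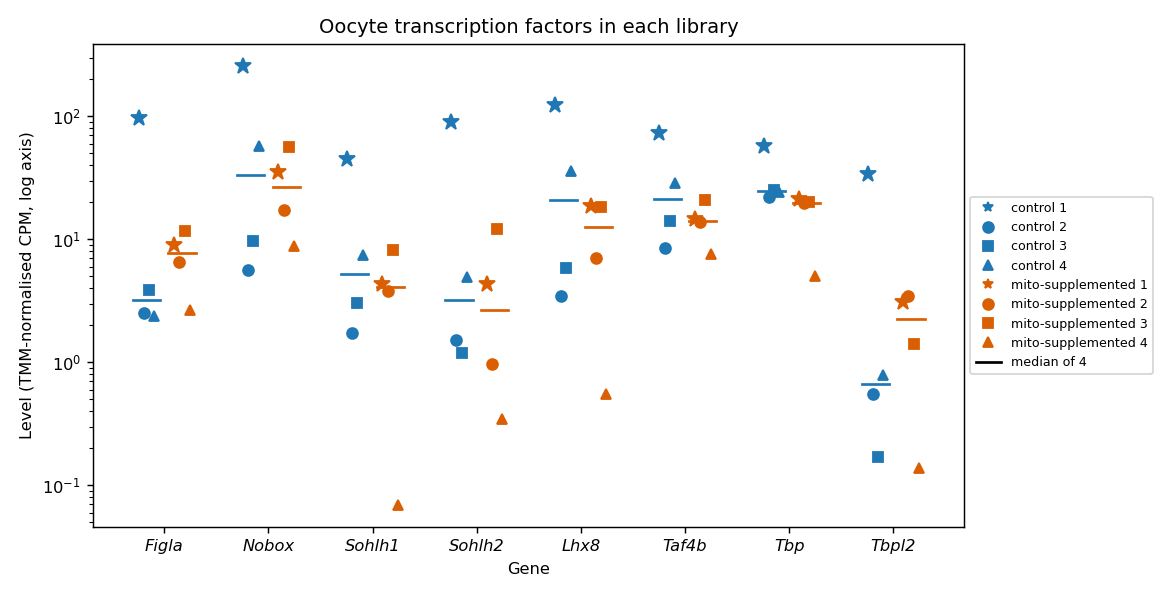
Level of each transcription factor in each library, in TMM-normalised CPM on a log axis. Blue symbols are the 4 control and orange symbols the 4 mito-supplemented libraries, and bars are medians of 4; control 1 (blue star) is highest for all 8 genes, and only the Tbp groups do not overlap.

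Figla, the factor in the germline alpha, a bHLH protein needed for primordial follicles to form, lies on chromosome 6 from 86016171 to 86020996 on the plus strand of GRCm38. Its level was 96.0, 2.54, 3.89 and 2.37 CPM in control 1 to 4 and 8.98, 6.51, 11.7 and 2.64 CPM in mito-supplemented 1 to 4. Control 1 was far above all other libraries, at 24.7 times the median of the other 7, while 3 of the 4 mito-supplemented libraries exceeded control 2 to 4, so the groups overlapped. The log2 fold change was -1.82 (SE 1.18), with an adjusted p value of 0.711 in edgeR's quasi-likelihood test. Without control 1 it was 1.36 (SE 0.686), with an adjusted p value of 0.653 in the same edgeR test. The direction of the Figla difference therefore depended on a single library.

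Sohlh1, a bHLH factor of early oocytes that is also used in spermatogonia, spans positions 25842995 to 25847248 of chromosome 2 on the minus strand. It was measured at 44.8, 1.74, 3.03 and 7.50 CPM in control 1 to 4 and at 4.37, 3.81, 8.12 and 0.0695 CPM in mito-supplemented 1 to 4. Control 1 was again highest, and mito-supplemented 4 rested on 1 count, for which the exact 95% Poisson interval was 0.0253 to 5.57 counts. The remaining 6 libraries lay between 1.74 and 8.12 CPM in both groups. The log2 fold change of Sohlh1 was -1.80 (SE 1.22), and 0.04 (SE 1.15) without control 1.

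Sohlh2, the closest relative of Sohlh1 among the members and its dimer partner, lies on chromosome 3 from 55182028 to 55209957 on the plus strand. Control 1 to 4 held 90.2, 1.51, 1.20 and 4.93 CPM, and mito-supplemented 1 to 4 held 4.32, 0.970, 12.2 and 0.348 CPM. Control 1 was at 59.9 times the median of the other 7, the highest such ratio of the 8 members, mito-supplemented 4 rested on 5 counts, and the groups overlapped. The log2 fold change was the lowest of the 8 at -2.46 (SE 1.48), with an adjusted p value of 0.693 in edgeR's quasi-likelihood test, and turned to 0.86 (SE 1.20; adjusted p 0.848) without control 1.

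Nobox, the newborn ovary homeobox factor that keeps young oocytes alive and drives egg genes, lies on chromosome 6 from 43303674 to 43309554 on the minus strand. Its level was 257, 5.63, 9.61 and 57.2 CPM in control 1 to 4 and 35.5, 17.3, 56.5 and 8.90 CPM in mito-supplemented 1 to 4. The lowest values came from control 2 and mito-supplemented 4 and control 3, and the highest from control 1, so that controls enclosed the whole mito-supplemented range. Counts were ample, from 71 in control 2 to 6253 in control 1. The log2 fold change was -1.48 (SE 1.06), and 0.33 (SE 0.878) without control 1.

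Lhx8, a LIM homeodomain factor of the oocyte, is found on chromosome 3 between 154306294 and 154330659 on the minus strand. It reached 124, 3.49, 5.83 and 35.7 CPM in control 1 to 4 and 18.6, 6.995, 18.2 and 0.556 CPM in mito-supplemented 1 to 4. High values in control 1 and control 4 and a low value of 8 counts in mito-supplemented 4 widened both groups, which overlapped. Its log2 fold change of -1.93 (SE 1.18) kept its sign without control 1, at -0.40 (SE 1.10), although within its error.

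Taf4b, the gonadal TFIID subunit, is on chromosome 18 from 14783245 to 14900359 on the plus strand. The level was 72.7, 8.48, 14.0 and 28.8 CPM in control 1 to 4 and 14.5, 13.9, 20.7 and 7.65 CPM in mito-supplemented 1 to 4. Control 1 was highest by a smaller margin than for the bHLH and homeodomain genes, at 5.19 times the median of the other 7, and the groups overlapped. Taf4b had a log2 fold change of -1.13 (SE 0.654), and of -0.24 (SE 0.545) without control 1.

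Tbp, the TATA-binding protein of most cells, spans positions 15499888 to 15528379 of chromosome 17 on the plus strand. Of its 13576 exon bases, 2582 overlap exons of the antisense gene Pdcd2. The strand setting of the counting is not given in the sources used here, so how reads in this overlap were counted is not known. It was counted at 57.5, 22.0, 25.0 and 24.1 CPM in control 1 to 4 and at 21.1, 19.8, 20.01 and 5.08 CPM in mito-supplemented 1 to 4. The 6 middle libraries were within a narrow span of 19.8 to 25.0 CPM, with control 1 above them and mito-supplemented 4 below. All controls were above all mito-supplemented libraries, though the lowest control and the highest mito-supplemented library were only 22.0 and 21.1 CPM. With library sizes not corrected by TMM, the groups overlapped, controls from 11.8 to 79.7 CPM and mito-supplemented from 5.51 to 27.4 CPM. The log2 fold change was -0.96 (SE 0.531) with an adjusted p value of 0.681 in edgeR's quasi-likelihood test, and -0.50 (SE 0.511; adjusted p 0.794) without control 1.

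Tbpl2, the oocyte paralogue of Tbp, lies on chromosome 2 from 24071721 to 24096595 on the minus strand. Counts were 833, 7, 3 and 4 in control 1 to 4 and 64, 50, 31 and 2 in mito-supplemented 1 to 4. In CPM these were 34.2, 0.555, 0.172 and 0.790 for controls and 3.11, 3.46, 1.41 and 0.139 for mito-supplemented samples. Fewer than 10 counts were held by 4 libraries, 3 of them controls, whereas 3 mito-supplemented libraries exceeded control 2 to 4. The log2 fold change was -2.14 (SE 1.54), with an adjusted p value of 0.727 in edgeR's quasi-likelihood test. Without control 1 it was 2.06 (SE 1.24), the highest of the 8, with an adjusted p value of 0.674 in the same edgeR test.

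**Figure D2:**
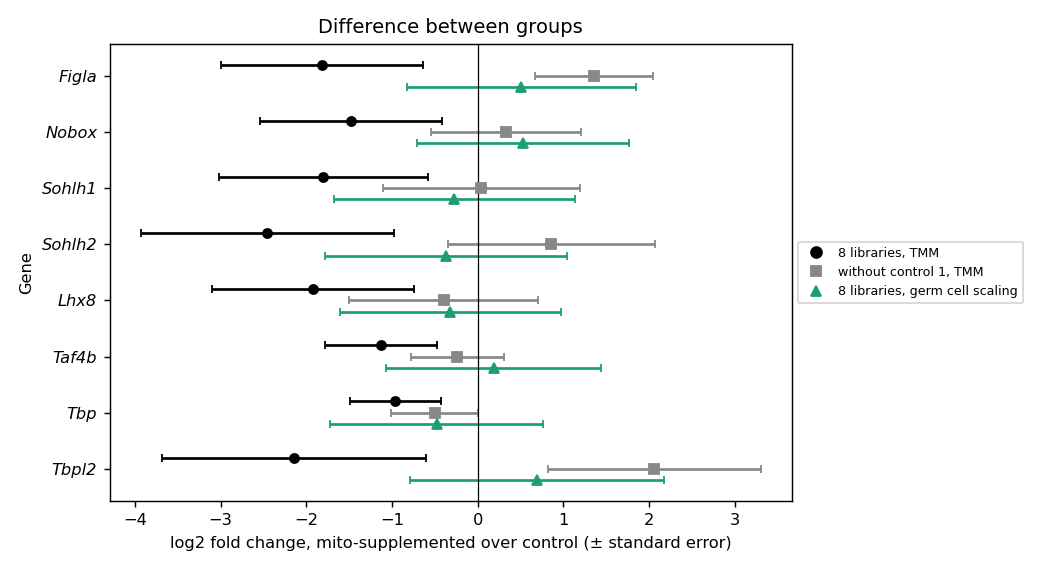
Log2 fold change of mito-supplemented over control for each gene, with bars of ± 1 standard error. Black circles use 8 libraries with TMM scaling and are all below 0; grey squares leave out control 1 and are above 0 for 5 genes; green triangles scale the 8 libraries to germ cell marker counts and are above 0 for 4 genes.

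Levels of different genes were compared per kilobase of the principal transcript. Nobox had the highest median over the 8 libraries at 13.9 CPM per kilobase (range 2.97 to 136) and ranked first in 5 of them. Tbp followed at 11.4 (range 2.68 to 30.4) when its transcript of 1891 bases was used. With its transcript of 12794 bases, Tbp ran from only 0.397 to 4.49 CPM per kilobase, so that its place in the order depends on the transcript. Lhx8 had a median of 7.30 (range 0.322 to 71.7) and Figla of 6.85 (range 3.12 to 127) CPM per kilobase. Within libraries the order of these 2 was the reverse, with Figla above Lhx8 in all but control 4. In control 4 Figla was at 3.12 and Lhx8 at 20.7 CPM per kilobase. Sohlh1 at 3.17, Taf4b at 2.77 and Sohlh2 at 1.23 CPM per kilobase formed the lower part, and Tbpl2 was lowest at 0.796 (range 0.101 to 24.8). Every pair of neighbours in this order overlapped in range, and no neighbours were separated beyond the spread between libraries.

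Relative to germ cell RNA, the spread between libraries was narrower for 7 of the 8 members but not for Tbp. The same count over all genes tested was not made. Without control 1 it was narrower for 6 of the 8: Figla then had an SD of 0.92 for its log2 level and 1.04 for its log2 ratio, and Tbp of 0.80 and 0.83. Nobox counts were 15.5%, 6.76%, 9.23% and 15.7% of the germ cell marker sum in control 1 to 4 and 16.5%, 14.5%, 18.6% and 18.3% in mito-supplemented 1 to 4. Control 2 and control 3, both rich in red cell RNA, had the low Nobox ratios, although mito-supplemented 1, equally rich in it, did not; the part of red cells in this was not tested. The SD over 8 libraries was 1.82 for the log2 level of Nobox and 0.52 for its log2 ratio to germ cell markers. For Tbp the SD was 0.95 for the level and 1.01 for the ratio.

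Figla stood at 5.79%, 3.05%, 3.74% and 0.649% of the germ cell marker sum in control 1 to 4 and at 4.18%, 5.44%, 3.83% and 5.43% in mito-supplemented 1 to 4. Its ratio was similar in 7 libraries and low in control 4 alone, where Figla had 12 counts and Nobox 290. Sohlh1 lay between 2.03% and 3.18% in 7 libraries and at 0.143% in mito-supplemented 4. In that library Lhx8 was also low, at 1.14% against 4.19% to 9.78% elsewhere, while Nobox, Figla and Taf4b were not. Taf4b varied from 4.39% in control 1 to 15.7% in mito-supplemented 4, and Tbp from 3.47% in control 1 to 26.5% in control 2. Sohlh2 ranged from 0.714% to 5.44% and Tbpl2 from 0.165% to 2.90%, both without a separation of the groups.

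When library sizes were replaced by the germ cell marker sum, 4 members had log2 fold changes above 0 and 4 below, with a median of -0.04. This scaling moved the median of all genes tested to 0.53, with 67.8% of them above 0, so that the member median lay below that of all genes. Nobox then had a log2 fold change of 0.52 (SE 1.23), Figla of 0.51 (SE 1.33) and Tbpl2 of 0.69 (SE 1.48). Figla stood at 0.167 without control 4 and at 0.93 without control 1. Tbp at -0.48 (SE 1.24) was the lowest, but stood at 1.15 without control 2, control 3 and mito-supplemented 1, where Nobox was at 0.14 and Tbpl2 at 0.0829. In edgeR's quasi-likelihood test with this scaling, 0 of the 8 members were called, against 3 of all genes tested (0.0216%), and their adjusted p values ran from 0.995 to 0.997. At an unadjusted p value of 0.05 there were 0 of 8 members, against 991 genes (7.14%). With standard errors of 1.23 to 1.48 on the log2 scale, a 2-fold difference in either direction was not detectable with these libraries.

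**Figure D3:**
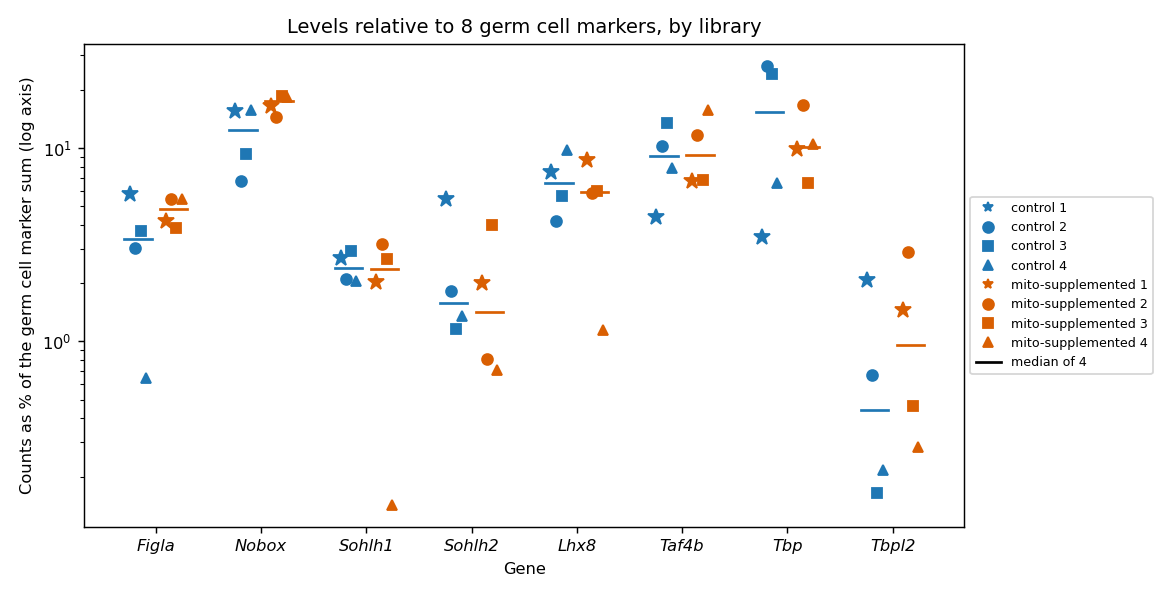
Counts of each transcription factor as a percentage of the summed counts of 8 germ cell markers, on a log axis, by library. Blue symbols are controls, orange symbols mito-supplemented libraries and bars medians of 4; Figla is low in control 4 alone (0.649%) and Sohlh1 in mito-supplemented 4 alone (0.143%).

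The relation to germ cell RNA was also measured as a correlation of log2 CPM with the log2 germ cell marker sum over 8 libraries, with exact permutation p values adjusted over the 8 members by the Benjamini-Hochberg method. Taf4b had r = 0.977 (exact p = 4.96e-05, adjusted 0.000397) and rho = 0.976 (exact p = 0.000397, adjusted 0.000794). Nobox had r = 0.964 (exact p = 0.000422, adjusted 0.00104) with the same rho and rho p values. Both relations held without control 1 and mito-supplemented 4, the libraries farthest from the median, at r = 0.908 for Taf4b and r = 0.975 for Nobox. Lhx8 (r = 0.958, rho = 0.976), Sohlh1 (r = 0.921, rho = 0.976) and Sohlh2 (r = 0.970, rho = 0.881) behaved alike, with r of 0.978, 0.947 and 0.870 without those libraries. Their adjusted exact p values were 0.00104, 0.00329 and 0.00104 for r and 0.000794, 0.000794 and 0.0116 for rho, from exact p values of 0.000496, 0.00206 and 0.000521 for r and 0.000397, 0.000397 and 0.00724 for rho. Figla had r = 0.822 (exact p = 0.0189, adjusted 0.0216) and rho = 0.476 (exact p = 0.243, adjusted 0.243), and r = 0.287 without the 2 libraries. Tbp had r = 0.797 (exact p = 0.0328, adjusted 0.0328) and rho = 0.524 (exact p = 0.197, adjusted 0.225), and r = -0.0812 without them. For Tbpl2, r was 0.830 (exact p = 0.0138, adjusted 0.0184) and rho 0.738 (exact p = 0.0458, adjusted 0.0611), and r was 0.2999 without them. The relations of Figla, Tbp and Tbpl2 to germ cell RNA thus rested on control 1 and mito-supplemented 4. How many of all genes tested follow this sum as closely was not counted, so these relations are not shown to be particular to the members.

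**Figure D4:**
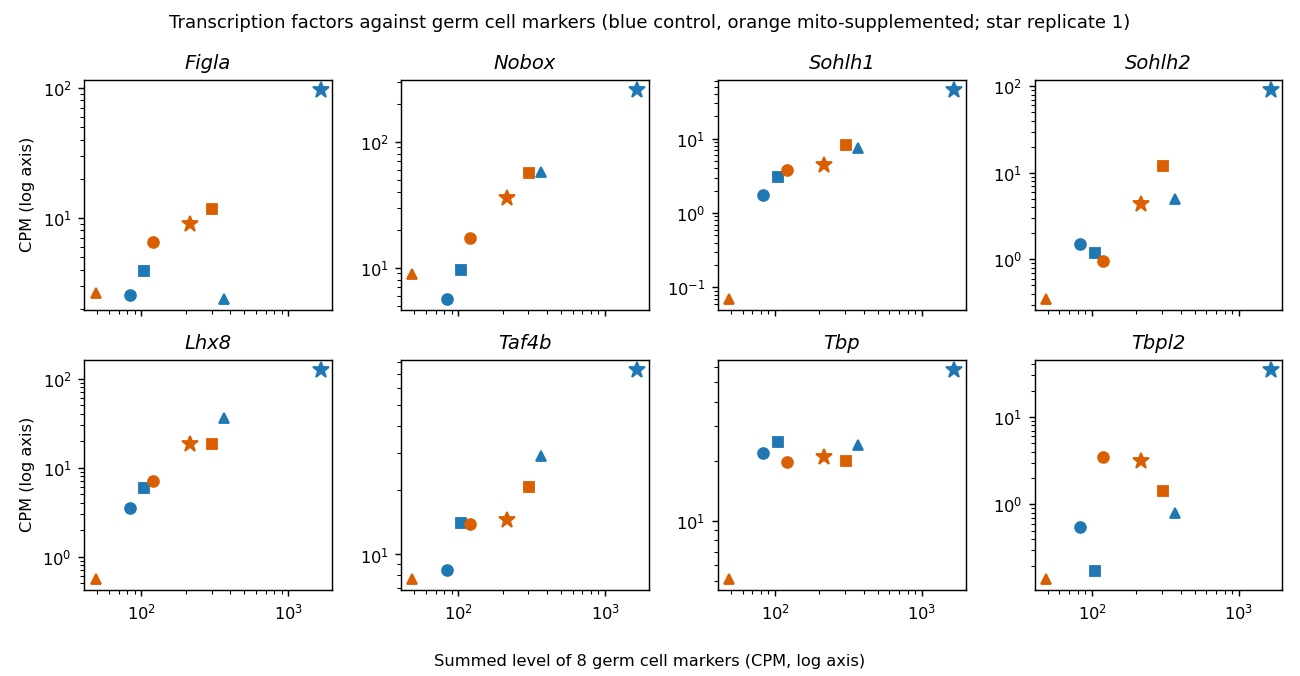
Level of each transcription factor against the summed level of 8 germ cell markers, both in CPM on log axes, with 1 point per library (blue control, orange mito-supplemented; star, circle, square and triangle for replicates 1 to 4). Nobox, Lhx8, Sohlh1 and Taf4b follow the sum with rho = 0.976, while Tbp is flat over the 6 middle libraries and Figla is low in control 4.

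Among themselves, the 8 members gave 28 pairs with a median r of 0.819, from 0.627 for Nobox with Tbp to 0.971 for Sohlh1 with Lhx8, where all pairs of genes tested had a median r of 0.00071. An r of at least 0.8, a level set after the values were seen, was reached by 17 of the 28 pairs and by 3.3% of all pairs of genes tested, and a rho of at least 0.8 by 10 of the 28 and by 3.03% of all pairs. Without control 1 these were 9 of 28 against 5.33% for r and 8 of 28 against 4.49% for rho. The median rho of the 28 pairs was 0.667. Sohlh1 and Lhx8 had r = 0.971 (exact p = 0.000149, adjusted 0.00417) and rho = 0.929 (exact p = 0.00223, adjusted 0.0104), and r = 0.908 without control 1 and mito-supplemented 4. Nobox and Taf4b had r = 0.944 (exact p = 0.000372, adjusted 0.00521) and rho = 0.952 (exact p = 0.00114, adjusted 0.00639), and r = 0.844 without control 1 and control 2. The dimer partners Sohlh1 and Sohlh2 had r = 0.892 (exact p = 0.00417, adjusted 0.0130) and rho = 0.905 (exact p = 0.00456, adjusted 0.0160), and r = 0.792 without control 1 and mito-supplemented 4. Without control 1 the median r of the 28 pairs was 0.608, from 0.259 for Figla with Tbp to 0.951 for Sohlh1 with Lhx8. The other values with 2 libraries left out start again from 8 libraries. They omit the 2 farthest from the median level of the first gene of each pair. Genes were ordered Figla, Nobox, Sohlh1, Sohlh2, Lhx8, Taf4b, Tbp and Tbpl2, and these values depend on that order. The median r was then 0.537, with 25 of 28 above 0. Tbp and its oocyte paralogue Tbpl2 had r = 0.703 (exact p = 0.0848, adjusted 0.0913) and rho = 0.214 (exact p = 0.619, adjusted 0.642), and r = -0.834 without control 1 and mito-supplemented 4. All pairs share the libraries and their germ cell content, and no correlation was computed within a group of 4 libraries. The libraries also formed clusters over all genes tested. Log2 CPM of control 2 had r = 0.920 with control 3 and 0.886 with mito-supplemented 1, but 0.624 to 0.725 with the rest. The exact p values, here and for the germ cell marker sum, treat the libraries as independent and are given as description only.

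**Figure D5:**
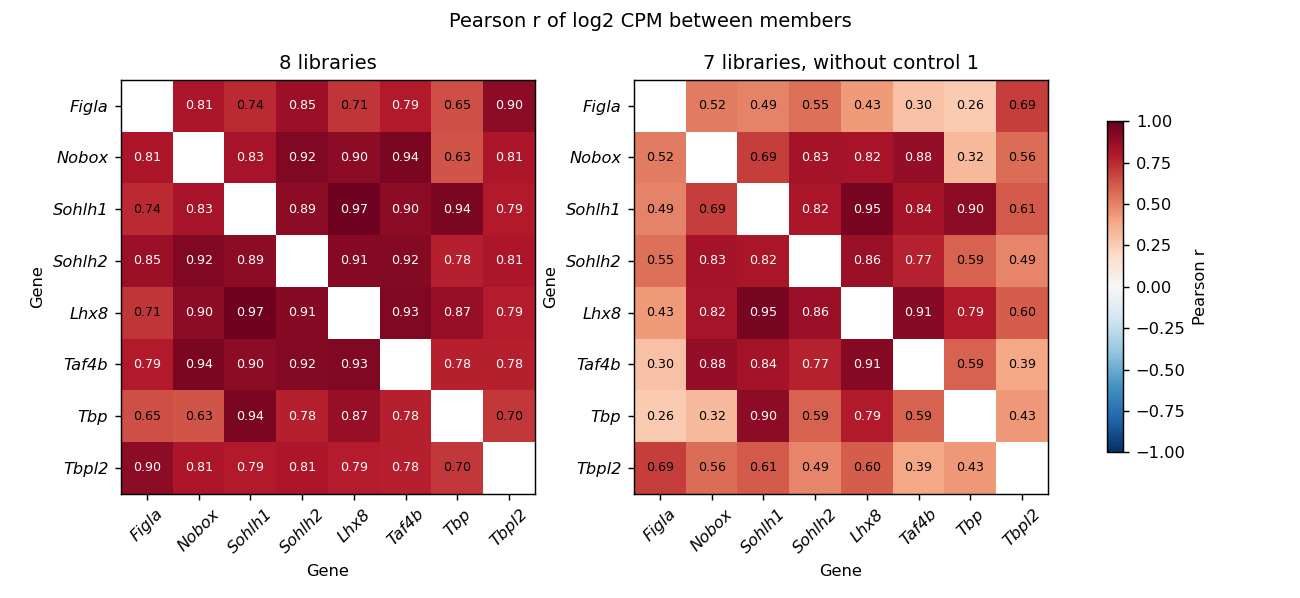
Pearson r of log2 CPM for each pair of transcription factors, over 8 libraries on the left and over 7 without control 1 on the right; colour and printed value give r. Sohlh1 with Lhx8 is highest in both panels (0.97 and 0.95), and Figla with Tbp is lowest without control 1 (0.26).

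The genes most like each member were sought among 8050 tested genes with a mean level of at least 10 CPM, by r of log2 CPM over 8 libraries, which is given as a description without a test. Nobox was closest to Mael (r = 0.991), a germ cell gene of transposon control, then AU015836 (0.982) and Dppa3 (0.979), a maternal gene known as Stella. Taf4b was closest to Tdrd1 (0.983), Zfp518a (0.982) and Dppa3 (0.978). For Lhx8 the order was Ndrg4 (0.992), Myot (0.985) and Trp63 (0.980), the p53 relative that guards oocyte DNA. Sohlh1 had 4930562C15Rik (0.989), Trim71 (0.988) and Dnahc17 (0.987), and Sohlh2 had Alg13 (0.977), C86187 (0.975) and Ufc1 (0.973). Tbp was closest to Slc4a1ap (0.992), Pus10 (0.984) and Ythdf2 (0.982), a reader of methylated RNA. Figla had Dcp1a (0.979), an mRNA decapping factor, Eif2b1 (0.974) and Kpna6 (0.972), and Tbpl2 had Btbd9 (0.970), Fam160a1 (0.970) and Fry (0.957). Without control 1, these r values ranged from 0.881 for Figla with Kpna6 to 0.991 for Tbp with Ythdf2.

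Known targets of the members, which include maternal genes of the egg, were also highest in control 1 as a sum. Of 21 targets listed, 17 were tested, and 0 were called in either direction; all 17 had log2 fold changes below 0, with a median of -1.46, and 12 were above 0 without control 1, with a median of 0.20. Under germ cell scaling 12 of 17 targets were above 0, with a median of 0.28, where all genes tested had 67.8% above 0 and a median of 0.53. Leaving out mito-supplemented 3 put the target median at -2.36, and the red cell covariate put it at -0.835. Their summed level was 4464, 234, 218 and 892 CPM in control 1 to 4 and 319, 287, 1077 and 179 CPM in mito-supplemented 1 to 4. Nlrp5, also called Mater and needed by the early embryo, had a log2 fold change of -2.15 (SE 1.12), and Padi6 of -1.65 (SE 1.09). Kit, the receptor through which oocytes receive pregranulosa Kit ligand, was at 629, 91.7, 45.4 and 92.0 CPM in control 1 to 4 and at 74.7, 30.8, 84.7 and 16.2 CPM in mito-supplemented 1 to 4. With 8 libraries, Kit was the only target with an unadjusted p value under 0.05 in edgeR's quasi-likelihood test (0.0365, adjusted 0.636). Its log2 fold change was -2.06, and -0.54 (SE 0.580) without control 1. Without mito-supplemented 3, 5 of 17 targets had such a p value, and 2 of 20 without control 2 or without control 3. Without control 1, 0 of 17 had one. Bmp15, Oosp1, Zar1 and Mos were too low to be tested, with 213, 22, 117 and 81 counts in control 1 and at most 91 in any other library.

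All 9 dimer partners were tested, and 0 were called; 6 were above and 3 below 0, with a median log2 fold change of 0.07. Without control 1, 7 were above and 2 below 0, with a median of 0.54, and with libraries of the same label prefix summed the median was 0.66. Under germ cell scaling it was 1.77, against 0.53 for all genes tested. It was below 0 without control 2, at -0.0393, and without mito-supplemented 4, at -0.0561. Their summed level, to which Tcf12, Tcf4 and Tcf3 gave most, was 562, 563, 571 and 690 CPM in control 1 to 4 and 505, 578, 570 and 786 CPM in mito-supplemented 1 to 4, with control 1 inside the range of the rest. Tcf12, Tcf4 and Tcf3, the broadly expressed E proteins that pair with bHLH factors such as FIGLA, had log2 fold changes of 0.03 (SE 0.279), 0.49 (SE 0.465) and -0.28 (SE 0.414). Ldb1, the LIM-binding cofactor of factors such as LHX8, had -0.96 (SE 0.574), and -1.23 (SE 0.519) without control 1, with an unadjusted p value of 0.0427 and an adjusted one of 0.642 in edgeR's quasi-likelihood test. Ldb1 was highest in the 3 libraries rich in red cell RNA, at 180, 140 and 78.3 CPM in control 2, control 3 and mito-supplemented 1 against 32.2 to 47.0 CPM in the other 5, and the part of red cells in its difference was not tested. Id3, an inhibitor of bHLH dimers, had 0.86 (SE 0.598).

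TFIID and preinitiation genes, the company of Tbp and Taf4b, were tested for 24 of 25 genes, with 0 called, 3 above and 21 below 0, and a median log2 fold change of -0.48. The median was -0.27 with library sizes not corrected by TMM and -0.12 under germ cell scaling, with 9 above and 15 below 0, against 0.53 for all genes tested. Their summed level was 1237, 1308, 1335 and 887 CPM in control 1 to 4 and 1048, 708, 681 and 648 CPM in mito-supplemented 1 to 4. The 3 libraries rich in red cell RNA, control 2, control 3 and mito-supplemented 1, were among the 4 highest. The median was -0.44 with the red cell covariate and -0.51 without those 3 libraries. Without control 1 the median was -0.51, with 19 of 24 below 0, so that the sign of this median did not depend on that library. Taf1, the largest TFIID subunit, had a log2 fold change of -0.84 (SE 0.421), Taf2 of -0.61 (SE 0.287) and Taf10 of -1.49 (SE 0.763). Taf5 had the lowest of the list, -1.51 (SE 0.606), with an adjusted p value of 0.630 in edgeR's quasi-likelihood test, and -0.82 (SE 0.522) without control 1. Taf15 and Gtf2a1 lay at -0.42 (SE 0.372) and -0.36 (SE 0.339). Stat3, Dynll1 and Sub1, reported to work with several of the members in turning stem cells into oocyte-like cells, had log2 fold changes of -0.54 (SE 0.623), -0.47 (SE 0.357) and -0.60 (SE 0.451), with 0 of 3 called. Control 1 was highest for all 3, with Stat3 at 332 CPM there and at 44.6 to 97.7 CPM in the other 7 libraries. Without control 1 the values were 0.66 (SE 0.324), -0.15 (SE 0.319) and -0.10 (SE 0.387), and under germ cell scaling all 3 were above 0, with a median of 0.56 close to the 0.53 of all genes tested. The median of the 3 was -0.82 without control 2 and -1.04 without control 2, control 3 and mito-supplemented 1.

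Of the germ cell markers, 8 of 8 tested genes were below 0, with a median of -1.50 and 0 called, and 6 of 8 were above 0 without control 1, with a median of 0.27. Their median was -0.91 with the red cell covariate and -2.53 without control 2, control 3 and mito-supplemented 1. Tdrd1, a piRNA pathway gene, had a log2 fold change of -1.99 (SE 0.913), Dazl of -1.96 (SE 1.11), Sycp3 of -1.70 (SE 1.03) and Mael of -1.33 (SE 1.10). Most markers of neighbouring cells had log2 fold changes above 0, with 0 called by edgeR's quasi-likelihood test and, named after their values were seen, Upk1b of the surface epithelium and Esam of the endothelium called by its likelihood ratio test. Of 11 pregranulosa markers tested 10 were above 0 (median 0.60), of 8 stroma markers all 8 (median 0.61), of 9 surface epithelium markers all 9 (median 1.89), of 7 endothelial markers 5 (median 0.85), of 5 smooth muscle markers all 5 (median 0.88) and of 5 immune markers all 5 (median 0.54), while 6 of 6 red cell markers were below 0 (median -0.41). These medians depended on single libraries. The pregranulosa median was 0.27 without control 2 (9 of 12 above 0) and 1.07 without control 4 (10 of 12). The stroma median was 1.62 without control 4 (8 of 8) and 0.32 without mito-supplemented 3 (6 of 8). The endothelial median was 1.58 without control 4 (7 of 7) and 0.14 without mito-supplemented 3 (4 of 7). The immune values rested on mito-supplemented 1: these markers, led by Lyz2, summed to 746 CPM there, to 12.2, 17.0 and 8.55 CPM in mito-supplemented 2 to 4 and to 10.5, 137, 120 and 21.7 CPM in control 1 to 4, and without that library 2 of 5 were above 0, with a median of -2.44. Without mito-supplemented 4, 2 of 5 smooth muscle markers were above 0 (median -0.17), and without control 4 their median was 2.10. Without control 2, 5 of 6 red cell markers were above 0 (median 0.41). The red cell median was also above 0, at 0.0437, 0.0693 and 0.0606, without mito-supplemented 2, 3 or 4. Without mito-supplemented 1 all 6 were below 0, with a median of -5.66. Each of these 6 then had an unadjusted p value under 0.05 in edgeR's quasi-likelihood test, and 0 were called. The red cell median was -0.76 without control 1 and -0.75 without control 4. An unadjusted p value under 0.05 in edgeR's quasi-likelihood test was found for 6 of the 9 surface epithelium markers, where 7.71% of all genes had one. When 1 library was left out, this count ran from 2 of 9, without control 1 or mito-supplemented 2, to 9 of 9 without control 4. The median without control 4 was 3.38. All 9 were above 0 whichever library was left out. Surface epithelium markers, led by Lgr5, summed to 95.8, 53.0, 39.7 and 396 CPM in control 1 to 4 and to 373, 971, 408 and 737 CPM in mito-supplemented 1 to 4. Stroma markers, led by Col1a1, summed to 338, 372, 594 and 2041 CPM in controls and to 701, 651, 2156 and 1788 CPM in mito-supplemented samples. Their part in the levels of the 8 transcription factors was not tested.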

How the data were processed

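The deposited values are raw counts per gene for 4 control and 4 mito-supplemented libraries. The authors trimmed the reads with Trim Galore 0.4.4, aligned them to mm10 with STAR 2.5.3a, counted them with featureCounts and tested them with edgeR 3.20.9. Which annotation release was used, whether strand was considered and how reads with several matches were treated is not given in the sources used here. A further control library, which the authors left out, was not analysed here.

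These counts were analysed with edgeR 4.0.16 under R 4.3.3, using TMM normalisation, its default expression filter and the quasi-likelihood test with the group as the only term. Benjamini-Hochberg adjustment was made over the 13873 genes tested. The likelihood ratio test, DESeq2 1.42.0, other scalings and filters, a replicate block, a red cell covariate and leaving out libraries were alternatives. CPM are TMM-normalised, and log2 CPM used a prior count of 2. Ratios to germ cell markers used member counts over the summed counts of that list, with 0.5 added to the member on the log2 scale. Correlations used exact permutation over pairings in SciPy 1.17.1. Intervals of 95% reflect only counting error, because reads from amplified RNA share molecules. Total counts ranged from 10370045 to 19760763. Coordinates and transcript lengths are from GENCODE M21, and promoters from RefSeq. The code was tested on simulated counts with changes larger than 2-fold. With the spread between libraries estimated from these data, the quasi-likelihood test recovered 41.1% of 190 changed genes and the likelihood ratio test 45.8%. With a smaller simulated spread both recovered 100%. A result of 0 called in these libraries therefore does not show that a gene was unchanged.

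Besides the members, the genes named were, in each list, the 4 with the highest mean CPM and the 2 with the largest difference, of which part is given here, and the 3 most similar to each member. The lists were targets, dimer partners, TFIID and preinitiation genes, cofactors, and markers of germ cells, pregranulosa, stroma, surface epithelium, red cells, endothelium, immune cells and smooth muscle. Members and lists were chosen with earlier results of these data known.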

Additional observations from a re-analysis of the deposited data

Results flagged for a closer look

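Among 42 groups of 4 values examined, 5 held a library far from the other 3, where chance gives about 2.1. Figla in control 1 had a log2 CPM of 6.59, against 1.32 to 2.00 in the other controls. Tbp was also far off in control 1, with a log2 CPM of 5.85 against 4.47 to 4.65. In mito-supplemented 4, Tbp had a log2 CPM of 2.38, where the rest of its group lay at 4.32 to 4.41. The log2 ratio of Sohlh1 to the germ cell markers in the same library was -8.87, against -5.61 to -4.96, and rested on 1 count. The summed log2 CPM of the dimer partners in control 4 was 9.43, against 9.13 to 9.16.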

How the results depend on the processing

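All 8 members stayed uncalled in every alternative run with edgeR's quasi-likelihood or likelihood ratio test. The number of genes called by the quasi-likelihood test, 0, became 3 when scaled to germ cell marker counts (Rdh1, U90926 and Upk1b, named after their values were seen), 58 with the likelihood ratio test and 141 with DESeq2; 1069 had an unadjusted p value under 0.05. The count of 58 by the likelihood ratio test became 210 with library sizes only, 30 with germ cell scaling and 158 with a red cell covariate, and without 1 library it ran from 13 (mito-supplemented 2) to 387 (mito-supplemented 1), with 22 without control 2, 331 without control 4 and 26 without mito-supplemented 4. Without control 2, control 3 and mito-supplemented 1, left out after the data were seen, it was 175. The causes were not tested. In mito-supplemented 4, Sohlh1, Sohlh2, Lhx8 and Tbpl2 rested on 1, 5, 8 and 2 counts, which limits what can be said of them there.

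Germ cell scaling turned the log2 fold changes of Figla to 0.51, Nobox to 0.52, Taf4b to 0.19 and Tbpl2 to 0.69. Leaving out 1 library, or together the 3 rich in red cell RNA (control 2, control 3 and mito-supplemented 1), gave ranges of -2.79 to 1.36 for Figla, -2.47 to 0.33 for Nobox, -2.67 to 0.0417 for Sohlh1, -3.65 to 0.86 for Sohlh2 and -3.36 to 2.06 for Tbpl2, each positive only without control 1. With germ cell scaling, these ranges were 0.167 to 0.93 for Figla, 0.14 to 0.69 for Nobox, -0.10 to 0.89 for Taf4b, -1.04 to 0.40 for Sohlh2, -0.0883 to 1.89 for Tbpl2, -0.58 to 0.10 for Sohlh1 and -0.99 to 0.013 for Lhx8. Taf4b was at -0.0625 with Ddx4 and Dazl alone as the scale, and Tbp with germ cell scaling ran from -0.81 without control 1 to 1.15 without the 3 libraries rich in red cell RNA. The median r of the 28 pairs was 0.608 without control 1 and up to 0.893 without another library, and 0.907 without the 3 libraries rich in red cell RNA.

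The labels do not say whether samples with the same replicate number were paired. Deviations of same-numbered libraries from their group means had r = -0.244, -0.191, -0.334 and 0.222, which cannot show whether they were. With the replicate block, Figla was at 0.14 and Tbpl2 at 0.042, and 0 genes were called by the quasi-likelihood and 74 by the likelihood ratio test.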
